A study of Homo sapiens with 16 samples.

Results

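The 45 genes described here are interferon-stimulated genes, a list of genes known to be switched on by interferon that was chosen by gene name. All 45 had a row in the count tables, out of 26364 genes. They cover the IFIT proteins, RNA sensing and degradation, the ISG15 system, antiviral effectors, further interferon-inducible proteins, transcription factors, PARP9 with its partners, and nuclear body proteins. The question was how high these genes stood in each cell line before estrogen and in which direction they moved after it.

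Bulk RNA-seq was conducted in 2 human cancer lines, Ishikawa from endometrial adenocarcinoma and T-47D from breast carcinoma. Each line received 10 nM 17β-estradiol (E2) for 0, 2, 4 or 8 h, in duplicate, which gave 16 libraries. Before treatment, every culture, the vehicle-treated 0 h controls included, stood in phenol red-free medium with charcoal-stripped serum, for 3 days per the labels and 5 days per the study's methods. The labels name no interferon or virus for any sample. The labels do not say whether replicates came from separate cultures, so the p-values measure the spread between these libraries, which may be technical. Each line is a single established line, authentication was not performed in the study, and the line cannot be told apart from any other difference in handling between the lines. In bulk RNA, fewer cells that use a gene and less RNA per cell cannot be told apart.

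Interferons are secreted proteins that bind receptors on the cell surface. The receptors' kinases, JAK1 and TYK2 for type I interferon, phosphorylate STAT proteins such as STAT2, which join IRF9 and bind the interferon-stimulated response element (ISRE) in the promoters of these genes. A second route acts through the gamma-activated sequence (GAS) and turns on genes such as IRF1. The products detect viral RNA, stop its translation, degrade it or hold back viral particles, and many are also made at a low level without interferon. Estrogen acts through ESR1, which binds the estrogen response element (ERE).

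Library totals were between 41177912 and 64148903 counts, and levels are given as CPM, the usual count relative to the TMM-scaled library total. No replicate pair held identical values. Epithelial markers were present in all libraries, with the summed CPM of EPCAM, KRT8, KRT18 and CDH1 from 2440 to 2761 for Ishikawa and from 6443 to 8517 for T-47D. ESR1 was expressed in both lines, at 247 and 234 CPM in Ishikawa and 166 and 163 CPM in T-47D cells at 0 h, while TFF1 was at 0 counts in every Ishikawa library and SOX17 in every T-47D library. Of 6 breast luminal markers, with ESR1 and TFF1 among them, 4 had a mean over 1 CPM in Ishikawa and 6 in T-47D cells. Their sums were 347 to 389 CPM and 2882 to 4227 CPM. Of 4 endometrial markers, with ESR1 and SOX17 among them, 3 had such a mean in Ishikawa and 1 in T-47D cells. Their sums were 413 to 607 CPM and 163 to 204 CPM. The 5 immune markers (PTPRC, CD3E, CD14, LYZ and CD79A) summed to at most 0.645 CPM in Ishikawa and 0.388 CPM in T-47D libraries. The sum of 4 fibroblast markers, nearly all of it COL1A1, was lower after E2, at 258 to 284 CPM at 0 h, 157 to 209 CPM at 4 h and 169 to 189 CPM at 8 h in Ishikawa libraries, and at 85.7 to 92.4 CPM at 0 h and 71.1 to 78.3 CPM at 8 h in T-47D libraries. The sum of 3 endothelial markers was 8.21 to 8.59 CPM at 0 h and 5.21 to 7.23 CPM at 8 h in Ishikawa libraries, and at most 0.208 CPM in T-47D libraries. The part of these markers in the falls after E2 was not tested. Of 3 plasmacytoid dendritic cell markers, LILRA4 was at 0 counts throughout, CLEC4C was at 0 in T-47D cells, and the sum was at most 0.600 CPM in any library. The genes that encode interferons themselves were nearly silent: 11 of the 21 listed were at 0 counts in all 16 libraries, and no interferon gene had more than 2 counts in any library.

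RefSeq promoter windows (GRCh38.p14, 250 bases before to 50 bases after the start) were matched for 39 of the 45 genes. IFIT2, MX2, OAS2, OASL, IRF7 and USP18 had no match. The ISRE core, spelled GAAANNGAAA and searched on both strands, stood in the windows of 25 of the 39 genes (64.1%), against 4.38% of all 27305 genes with a window. It is given for genes that were at 0 in Ishikawa cells (PARP14, PARP9, IFIH1 and OAS3) and for genes expressed in both lines on which the later comparisons turn, written 5′ to 3′ along the gene's strand with the core in capitals. A core on the opposite strand reads TTTC first.
PARP14, chr3:122680795-122680834 (+): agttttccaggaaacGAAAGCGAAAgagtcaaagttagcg
PARP9, chr3:122564317-122564356 (-): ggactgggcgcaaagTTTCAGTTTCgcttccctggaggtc
IFIH1, chr2:162318685-162318720 (-): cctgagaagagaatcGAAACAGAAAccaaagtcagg
OAS3, chr12:112938447-112938473 (+): cggagagccgggcggGAAAACGAAAcc
ISG15, chr1:1013375-1013414 (+): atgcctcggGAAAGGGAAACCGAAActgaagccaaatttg
MX1, chr21:41431839-41431878 (+): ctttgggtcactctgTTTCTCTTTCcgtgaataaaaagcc
HERC5, chr4:88457030-88457069 (+): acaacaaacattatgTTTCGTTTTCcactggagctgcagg
TRIM14, chr9:98119224-98119263 (-): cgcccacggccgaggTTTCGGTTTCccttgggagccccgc
DDX60, chr4:168318781-168318820 (-): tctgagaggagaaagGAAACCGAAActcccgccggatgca
BST2, chr19:17405730-17405769 (-): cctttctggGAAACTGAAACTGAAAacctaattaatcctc
The core ended 2 bases before the start of OAS3 and 186 bases before that of MX1. Among the 12 matched genes that were below the count filter in Ishikawa cells, 7 held the core, and among the other 27 matched genes 18 did, so the core stood in windows of genes that were near 0 and of genes that were expressed. HERC6, TRIM25, STAT2, UBE2L6, SP100, SP110 and OAS1, which the comparisons also turn on, had no such core in their windows.

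The GAS motif, spelled TTCNNNGAA, stood in the windows of 12 of the 39 genes (30.8%), against 9.38% of all genes. It is shown, in capitals, for IRF1, the transcription factor of this set that moved earliest in T-47D cells.
IRF1, chr5:132490874-132490912 (-): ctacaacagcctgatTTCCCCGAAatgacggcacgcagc
The full ERE, spelled GGTCANNNTGACC, was in none of the 39 windows and in 0.0732% of all genes, and its single arm GGTCA was in 12 of the 39 (30.8%), against 42.6% of all genes. A match is a description of these letters and says nothing of binding.

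Before E2, 14 of the genes were at a mean of 0.108 CPM or less over the 2 libraries of Ishikawa cells and passed the filter on low counts in T-47D cells. The others that differed did so in both directions. At an adjusted p under 0.05 (edgeR quasi-likelihood test with Benjamini-Hochberg adjustment over 17090 genes), 31 of the 45 were higher in T-47D cells, where 39.5% of all tested genes were. Another 8 were lower, where 42.4% of all genes were, and 6 did not pass. The 31 include 14 genes that passed the filter on low counts through their T-47D libraries alone, so their direction was fixed by the filter and is no support. Likewise IFI44L, among the 8, passed through Ishikawa libraries alone. Of the 30 genes that passed in both lines, 17 were higher and 7 lower, and with at least 10 counts in every library 16 were higher and 6 lower. The shares of 39.5% and 42.4%, here and in later comparisons before E2, are over all 17090 genes. These include genes that passed the filter through a single line. Shares of all genes under the same restrictions are not given, so the restricted counts were not compared with a matching background. Log2 differences are T-47D minus Ishikawa.

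**Figure D1:**
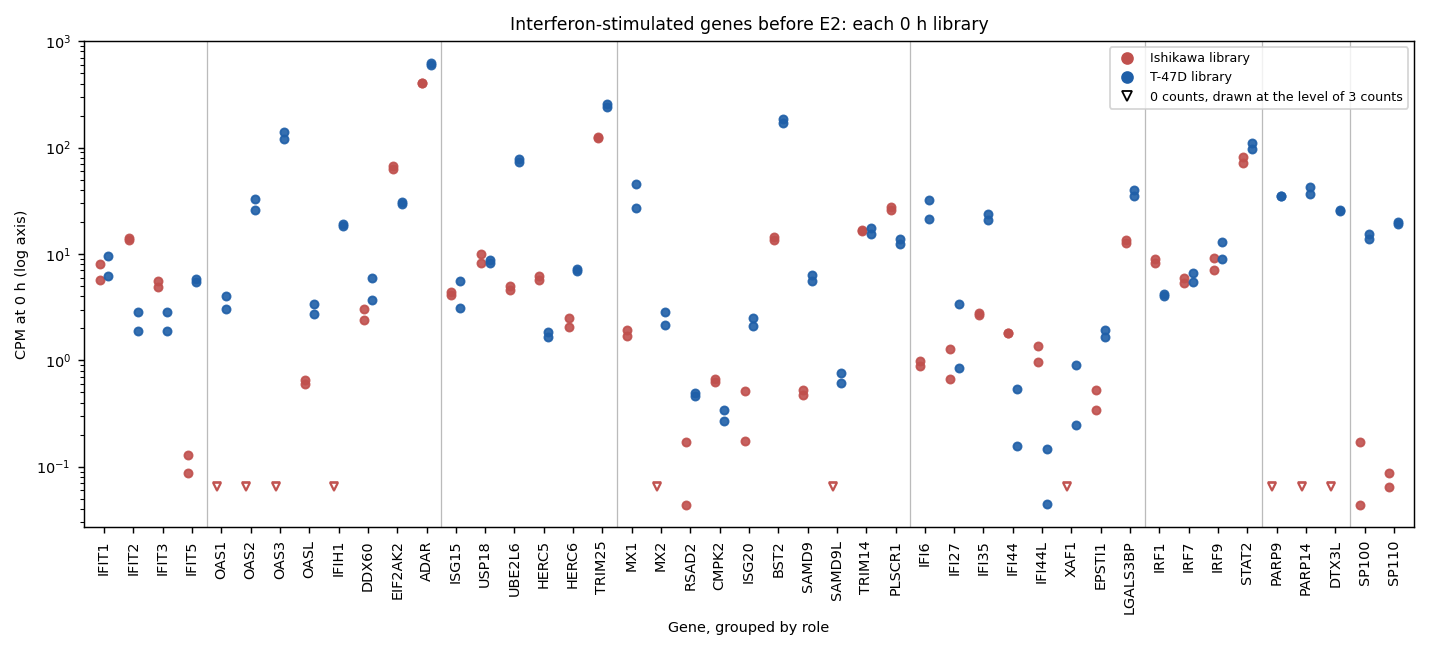
Level of each gene at 0 h in CPM on a log axis, 1 point per library (2 per line), with genes grouped by role. Open triangles are libraries with 0 counts, drawn at the level of 3 counts. Ishikawa libraries had 0 counts for 10 genes that reached up to 141 CPM (OAS3) in T-47D libraries, while IFIT2, IFI44, IFI44L and HERC5 stood higher in Ishikawa libraries.

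Several genes of RNA sensing were not detectable in Ishikawa cells at this depth. OAS1, OAS2 and OAS3 make the short oligoadenylates that switch on RNase L. OAS3 had 0 counts in both Ishikawa libraries at 0 h and 121 and 141 CPM in the T-47D libraries, at least 2026-fold higher when the Ishikawa level is set at 3 counts per library. OAS2 had 25.9 and 32.5 CPM in T-47D cells, at least 451-fold higher, and OAS1 3.01 and 4.001 CPM, at least 54.2-fold higher. Across all 8 Ishikawa libraries, OAS1 had no count, OAS2 had 2 counts in total and OAS3 had 4, whereas the lowest T-47D library held 5176 counts of OAS3. IFIH1, a cytosolic sensor of viral RNA, was likewise at 0 counts in Ishikawa cells at 0 h and at 18.4 and 18.99 CPM in T-47D cells, at least 289-fold higher.

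Other members of the same role did not share the gap. ADAR, which edits adenosine to inosine in RNA, was the highest of the set per length in Ishikawa cells and differed by only 0.65 ± 0.05 on the log2 scale. EIF2AK2, the RNA-activated kinase that stops translation, stood the other way, at 67.02 and 62.4 CPM in Ishikawa and 31.1 and 29.7 CPM in T-47D cells, a log2 difference of -1.02 ± 0.07 (SE, adjusted p = 1.53e-11). OASL and DDX60 were higher in T-47D cells by 2.33 ± 0.38 and 0.90 ± 0.24, and the DDX60 call was lost without T-47D 0 h replicate 2.

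PARP9, PARP14 and DTX3L, ADP-ribosyltransferases and the ubiquitin ligase partner of PARP9, formed a second block. None had a count in the Ishikawa 0 h libraries. T-47D cells held 35.3 and 35.04 CPM of PARP9, 36.4 and 42.6 CPM of PARP14 and 25.9 and 25.5 CPM of DTX3L, which gave lower bounds of 543-fold, 610-fold and 396-fold. The nuclear body genes SP100 and SP110 had a few counts in Ishikawa cells. SP100 stood at 0.0434 and 0.172 CPM in Ishikawa against 15.5 and 13.7 CPM in T-47D cells, a log2 difference of 7.12 ± 0.26 (SE). SP110 stood at 0.0869 and 0.0644 CPM in Ishikawa against 19.8 and 19.2 CPM in T-47D cells, a log2 difference of 8.03 ± 0.24 (SE). Both passed the filter through T-47D libraries alone, so no p-value is given for them.

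Several genes at or near 0 in Ishikawa cells had close relatives next to them that were expressed. IFIT5 had 0.0869 and 0.129 CPM in Ishikawa cells and 5.44 and 5.77 CPM in T-47D cells, a log2 difference of 5.73 ± 0.28 (SE). No p-value is given, since IFIT5 passed the filter through T-47D libraries alone. Its relatives in the same cluster were expressed in Ishikawa cells, IFIT1 at 5.65 and 8.01 CPM, IFIT2 at 13.4 and 14.1 CPM and IFIT3 at 4.93 and 5.58 CPM. IFIT proteins bind foreign RNA and hold back its translation. MX2 and MX1 are GTPases that trap viral components. MX2 was at 0 counts in Ishikawa and 2.83 and 2.13 CPM in T-47D cells, at least 38.4-fold higher, and MX1 was at 1.69 and 1.93 CPM in Ishikawa and 27.3 and 45.4 CPM in T-47D cells, a log2 difference of 4.39 ± 0.28 (SE, adjusted p = 7.14e-12). SAMD9L was at 0 counts at 0 h in Ishikawa cells and at 0.607 and 0.752 CPM in T-47D cells, at least 10.5-fold higher. Its neighbour SAMD9 was at 0.521 and 0.472 CPM in Ishikawa and 5.51 and 6.40 CPM in T-47D cells, a log2 difference of 3.64 ± 0.22 (SE, adjusted p = 4.52e-12).

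Among the remaining effectors, BST2, which tethers budding virus to the cell surface, had 14.4 and 13.6 CPM in Ishikawa and 172 and 185 CPM in T-47D cells, a log2 difference of 3.74 ± 0.08 (SE, adjusted p = 6.82e-20). IFI6, a small membrane protein, differed by 4.89 ± 0.25 (SE, adjusted p = 2.23e-13), from 0.977 and 0.880 CPM to 21.1 and 31.8 CPM. UBE2L6, the conjugating enzyme of ISG15, differed by 4.05 ± 0.08 (SE, adjusted p = 6.97e-20). XAF1, a partner of the apoptosis inhibitor XIAP, had no count in any of the 8 Ishikawa libraries and 0.247 and 0.897 CPM at 0 h in T-47D cells, at least 8.84-fold higher.

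The 8 genes lower in T-47D cells were IFI44L, IFIT2, IFI44, HERC5, IFIT3, EIF2AK2, IRF1 and PLSCR1. IFI44L had 1.37 and 0.966 CPM in Ishikawa cells and 0.0450 and 0.145 CPM in T-47D cells, where it was the only gene of the set below the filter, with 0 to 9 counts per library. Its log2 difference was -3.54 ± 0.59 (SE), given without a p-value since IFI44L passed the filter through Ishikawa libraries alone. The log2 difference of its neighbour IFI44 was -2.34 ± 0.41 (SE, adjusted p = 2.60e-05). IFIT2 differed by -2.46 ± 0.16 (SE, adjusted p = 1.19e-11), HERC5, the ligase that attaches ISG15, by -1.68 ± 0.17 (SE, adjusted p = 1.33e-08) and IFIT3 by -1.10 ± 0.23 (SE, adjusted p = 0.000210). IRF1 stood at 8.30 and 8.95 CPM in Ishikawa and 4.03 and 4.22 CPM in T-47D cells (log2 difference -0.997 ± 0.17, adjusted p = 1.77e-05).

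ISG15, a ubiquitin-like protein that is attached to other proteins, was not called. It had 4.10 and 4.36 CPM in Ishikawa and 3.10 and 5.55 CPM in T-47D cells, so the Ishikawa values lay between those of the T-47D replicates, and the log2 difference was 0.10 ± 0.25 (SE, adjusted p = 0.732). It was -0.37 without T-47D 0 h replicate 2. IFI27, a mitochondrial and membrane protein, had 0.673 and 1.29 CPM in Ishikawa and 0.855 and 3.39 CPM in T-47D cells, overlapping ranges. Its log2 difference was 1.17 ± 0.46 (SE, adjusted p = 0.0238), but -0.12 without T-47D 0 h replicate 2, and the call was also lost without Ishikawa 0 h replicate 1 and with only the time points compared.

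The transcription factors that carry the interferon signal differed less. STAT2 had 71.6 and 80.8 CPM in Ishikawa and 97.7 and 111 CPM in T-47D cells (log2 difference 0.52 ± 0.08, adjusted p = 7.47e-06). IRF9, its DNA-binding partner, had 7.12 and 9.12 CPM in Ishikawa and 9.000 and 12.9 CPM in T-47D cells (log2 difference 0.50 ± 0.20, adjusted p = 0.0282), and that call was lost without Ishikawa 0 h replicate 1 or T-47D 0 h replicate 2. The other genes that did not pass were IFIT1, USP18, CMPK2, TRIM14 and IRF7. RSAD2, an antiviral radical enzyme with few counts in both lines, was called higher in T-47D cells, but not without Ishikawa 0 h replicate 1. It passed the filter through T-47D libraries alone, so its direction was fixed by the filter and the call is no support.

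Levels of different genes were compared per length, as RPKM (CPM per kilobase of exon), at 0 h. In Ishikawa cells the highest were ADAR at 33.1 ± 0.403 (SD, n = 2), BST2 at 12.7 ± 0.465, TRIM25 at 10.0 ± 0.173, STAT2 at 8.19 ± 0.697 and PLSCR1, a phospholipid scramblase, at 6.21 ± 0.301 RPKM. BST2 led in T-47D cells at 162 ± 8.34 RPKM, followed by ADAR at 49.7 ± 1.99, UBE2L6 at 36.7 ± 2.19, IFI6 at 28.3 ± 8.13 and TRIM25 at 20.1 ± 0.993. IFI6 lay about 1 of its own SD from both of its neighbours in that order, UBE2L6 and TRIM25. Against the median tested gene, 4.52 RPKM in Ishikawa and 4.31 RPKM in T-47D cells, 7 and 11 of the genes stood higher. Using the longest transcript in place of all exons raised most of these levels but kept ADAR first in Ishikawa and BST2 first in T-47D cells.

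Genes near 0 in Ishikawa cells were in part neighbours. On GRCh37, the 45 genes fell into 32 loci when members within 200000 bp were joined. Of the 9 loci with 2 or more members, which held 22 of the genes, 3 had every member below the filter in Ishikawa cells. These were OAS1, OAS3 and OAS2 (chr12:113343661-113449528), PARP9, DTX3L and PARP14 (chr3:122246771-122449687), and SP110 and SP100 (chr2:231029902-231410321).

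Some genes beside these loci were expressed in Ishikawa cells and others were not. RPH3A, directly before OAS1, had 0 counts in all Ishikawa libraries and a mean of 0.0900 CPM in T-47D cells at 0 h, and PARP15, which lies between DTX3L and PARP14, was at 0 counts in Ishikawa and 0.0242 CPM in T-47D cells. PTPN11, the gene before RPH3A, had a mean of 343 CPM in Ishikawa and 451 CPM in T-47D cells. KPNA1, next to PARP9, had 103 CPM in Ishikawa cells, and HSPBAP1, next to PARP14, had 7.19 CPM. CAB39, next to SP100, had 95.8 CPM in Ishikawa cells and SLC16A14, next to SP110, 13.4 CPM. SP140L, a relative that lies between SP110 and SP100, had 0 counts in both Ishikawa 0 h libraries and a mean of 18.4 CPM in T-47D cells. GCA, on one side of IFIH1, had 19.6 CPM in Ishikawa cells. FAP, on its other side, had 0 counts in both Ishikawa 0 h libraries and a mean of 0.0225 CPM in T-47D cells. SLC13A5 and FBXO39, on either side of XAF1, had 0 counts at 0 h in both lines.

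**Figure D2:**
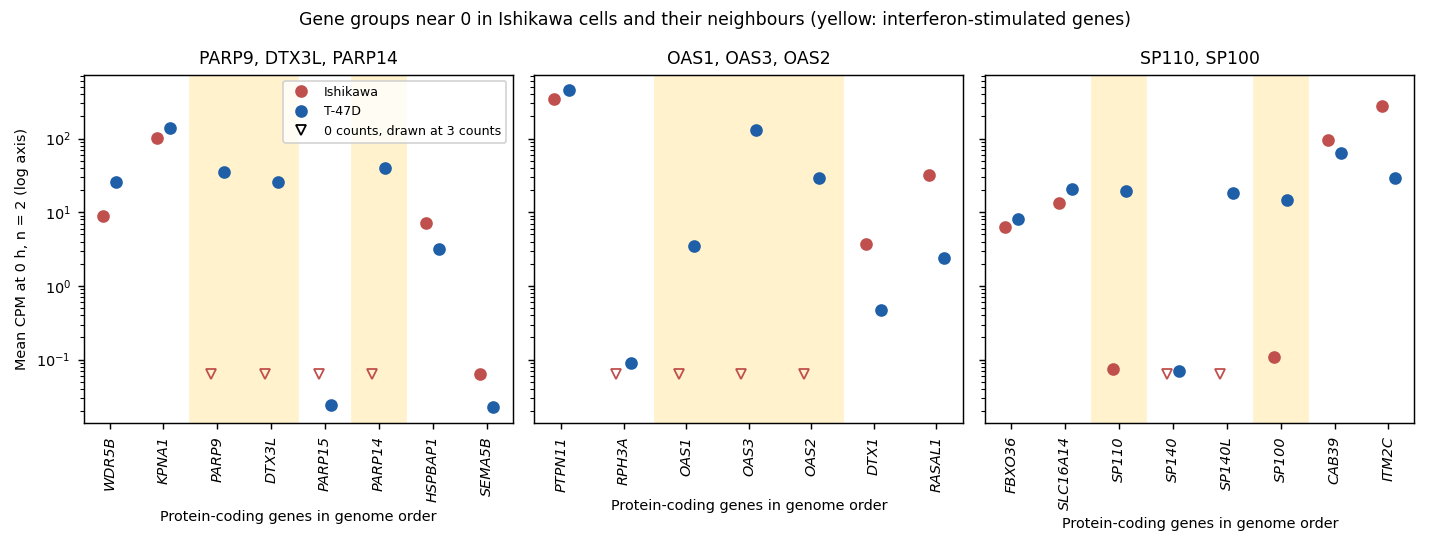
Mean CPM at 0 h (n = 2, log axis) of the interferon-stimulated genes of 3 loci, on yellow, and of the protein-coding genes beside and between them, in genome order. Open triangles mark 0 counts, drawn at 3 counts. In each locus the Ishikawa value is at or near the floor for every gene on yellow, and at 7.19 CPM or more for a gene on each outer side within 2 genes.

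A few of the genes overlap a gene on the other strand, among them PARP9 with DTX3L, CMPK2 with RSAD2, IFIT1 to IFIT3 with LIPA, TRIM25 with DGKE and TRIM14 with NANS. The strand setting of the counting is not given in the sources used here, so reads of such partners may not be told apart. LIPA had 95.6 CPM in Ishikawa cells, where IFIT2 had 13.7 CPM.

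After E2, 31 of the 45 genes passed the filter in Ishikawa and 44 in T-47D cells, 30 of them in both. The 14 below the filter in Ishikawa cells were IFIT5, OAS1, OAS2, OAS3, IFIH1, MX2, RSAD2, SAMD9L, XAF1, PARP9, PARP14, DTX3L, SP100 and SP110, with at most 14 counts in any Ishikawa library at any time. The contrasts of 2, 4 and 8 h of a line share their 0 h libraries.

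**Figure D3:**
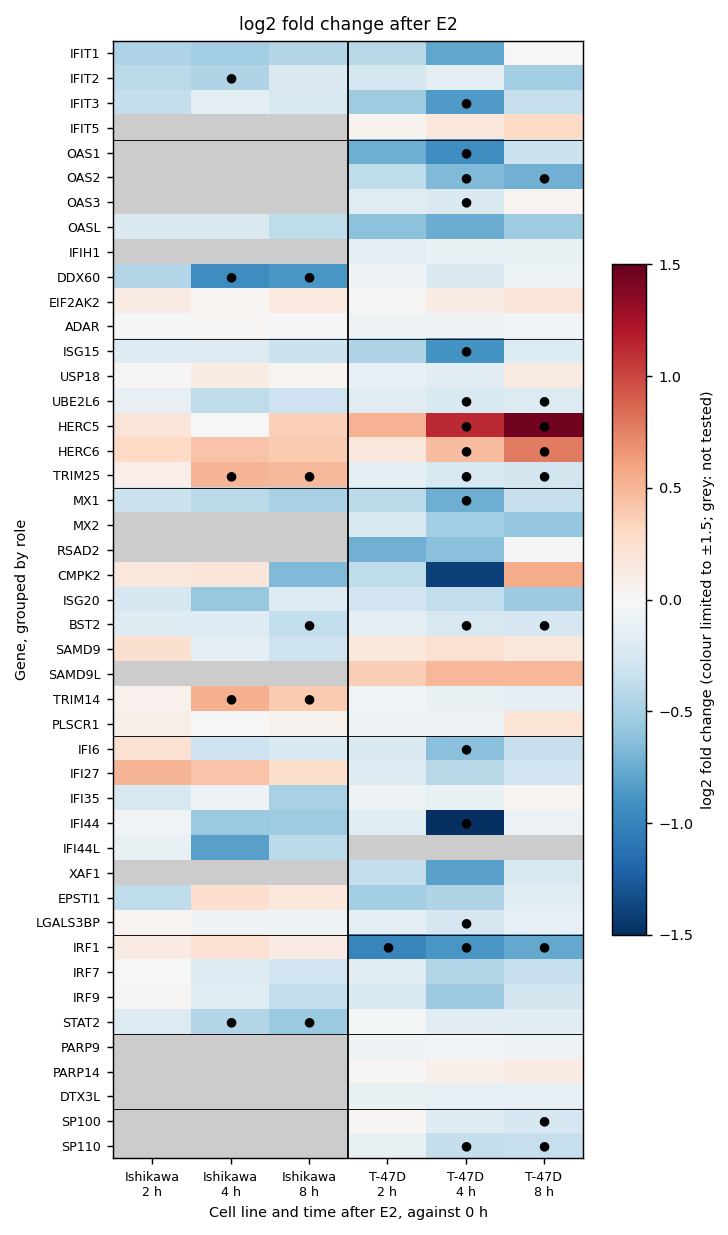
log2 fold change of each of the 45 genes at 2, 4 and 8 h of E2 against 0 h in Ishikawa (left) and T-47D cells (right), with colour limited to ±1.5 and grey for genes not tested. Black dots mark an adjusted p under 0.05. Dots are few on the left, and on the right there are 16 at 4 h, 14 of them on blue (lower).

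In Ishikawa cells at most 2 of the genes passed as higher and at most 3 as lower at any time. At 2 h none of the 31 tested passed in either direction (edgeR), where 2.61% of all genes were higher and 1.74% lower, and 4 had an unadjusted p under 0.05; DESeq2 called 1 lower. At 4 h, 2 were higher (6.45%) and 3 lower (9.68%), against 7.66% and 6.60% of all genes. At 8 h again 2 were higher and 3 lower, against 12.0% and 10.1%. The median log2 fold change after 2, 4 and 8 h was -0.01, -0.15 and -0.25, with medians over all genes of -0.00, 0.00 and -0.01. From 2 h to 8 h, TRIM25 alone passed, and 2.24% of all genes did. Leaving out 8 h replicate 1, 8 h replicate 2 or 0 h replicate 1 gave 1 lower gene at 2 h, and leaving out 8 h replicate 1 or any 4 h or 0 h library gave 1 lower gene from 2 h to 8 h.

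TRIM25 and TRIM14 were the genes that rose in Ishikawa cells. TRIM25, a ubiquitin ligase of the RNA-sensing pathway that is also known as the estrogen-responsive finger protein, was at 123 and 126 CPM before E2, then 135 and 132 after 2 h, 184 and 172 after 4 h, and 169 and 181 after 8 h. The 4 h and 8 h libraries did not overlap the earlier ones, and TRIM25 rose by 0.51 ± 0.06 (SE, adjusted p = 2.79e-05) at 4 h and 0.49 ± 0.06 (SE, adjusted p = 4.09e-05) at 8 h on the log2 scale. From 2 h to 8 h the change was 0.39 ± 0.06 (SE, adjusted p = 0.00196), a call lost without 2 h replicate 2. TRIM14, an adaptor of antiviral signalling at mitochondria, was at 16.7 and 16.4 CPM before E2, then 16.7 and 17.8 after 2 h, 24.8 and 23.1 after 4 h, and 20.6 and 22.9 after 8 h. It rose by 0.53 ± 0.09 (SE, adjusted p = 0.00105) at 4 h and 0.39 ± 0.09 (SE, adjusted p = 0.00669) at 8 h, the latter call being lost without 8 h replicate 2.

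STAT2, DDX60, IFIT2 and BST2 fell in Ishikawa cells. STAT2 was at 71.6 and 80.8 CPM before E2, then 67.5 and 64.2 after 2 h, 53.4 and 59.3 after 4 h, and 56.4 and 47.03 after 8 h, with both late pairs under every 0 h and 2 h library. Its log2 fold change was -0.44 ± 0.09 (SE, adjusted p = 0.00369) at 4 h and -0.56 ± 0.09 (SE, adjusted p = 0.000437) at 8 h, and the 4 h call was lost without 4 h replicate 1 or 0 h replicate 2. DDX60, a helicase-like antiviral protein, was at 3.02 and 2.40 CPM before E2, then 1.75 and 2.23 after 2 h, 1.54 and 1.31 after 4 h, and 1.71 and 1.21 after 8 h. It changed by -0.93 ± 0.26 (SE, adjusted p = 0.0246) at 4 h, a call lost without any single 0 h or 4 h library, and by -0.88 ± 0.25 (SE, adjusted p = 0.0202) at 8 h, a call lost without either 0 h library or 8 h replicate 2.

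IFIT2 was at 13.4 and 14.1 CPM before E2, then 10.01 and 10.7 after 2 h, 10.4 and 9.62 after 4 h, and 12.7 and 10.8 after 8 h. Its fall passed at 4 h alone, with a log2 fold change of -0.46 ± 0.11 (SE, adjusted p = 0.0144), and not without 4 h replicate 2 or 0 h replicate 2. BST2 passed at 8 h alone, with a log2 fold change of -0.37 ± 0.11 (SE, adjusted p = 0.0309), and was lost without any of 8 h replicate 2, both 2 h or both 0 h libraries. Leaving out 1 library took the count of lower genes at 4 h from 3 to 1 (either 4 h replicate) or 0 (0 h replicate 2), and that at 8 h to 1 (8 h or 0 h replicate 2). Without 8 h replicate 2, 1 gene in place of 2 was higher at 8 h.

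In T-47D cells the most falls passed at 4 h, a count that turned on single libraries. At 2 h, IRF1 was the only gene of 44 that passed, falling (2.27%), where 4.40% of all genes were lower and 4.90% higher. At 4 h, 14 were lower and 2 higher. The 14 were 31.8% of the members tested, against 10.4% of all genes, and the 2 higher 4.55%, against 11.1%. At 8 h, 7 were lower (15.9%), near the 14.3% of all genes, and 2 higher, against 15.4%. The difference between times was not tested for these counts. The median log2 fold change after 2, 4 and 8 h was -0.15, -0.24 and -0.14, with values of -0.01, -0.00 and 0.00 over all genes.

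The count at 4 h was 4 without 0 h replicate 2 (IRF1, OAS2, SP110 and TRIM25), 4 without 4 h replicate 1 (IRF1, ISG15, OAS2 and TRIM25) and 19 without 0 h replicate 1. With those first 2 libraries left out in turn the count at 8 h was 8 and 6, above that at 4 h. DESeq2 called 10 at 4 h, without ISG15, MX1, IFI6 and IFI44, the last of which had no adjusted p there. IRF1, OAS2 and TRIM25 passed at 4 h with any 1 of the 8 libraries left out. At 8 h the count was 14 without 8 h replicate 1 and 4 without 8 h replicate 2, with BST2, OAS2, SP110 and TRIM25 called in each of the 8 fits. At 2 h it was 4 without 8 h replicate 1 and likewise without 8 h replicate 2, and 6 without 0 h replicate 1. Without 2 h replicate 2 it was 2, IFI6 and OAS2 and not IRF1.

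IRF1, a transcription factor that drives many interferon-stimulated genes and is itself induced by interferon, was at 4.03 and 4.22 CPM before E2, then 2.46 and 1.67 after 2 h, 2.41 and 2.06 after 4 h, and 2.90 and 1.96 after 8 h in T-47D cells. All 6 treated libraries lay under both 0 h libraries. Its log2 fold change was -0.99 ± 0.22 (SE, adjusted p = 0.00499) at 2 h, -0.88 ± 0.21 (SE, adjusted p = 0.00551) at 4 h and -0.76 ± 0.21 (SE, adjusted p = 0.0101) at 8 h. The 2 h call was lost without 2 h replicate 2 and the 8 h call without 8 h replicate 2. The other factors did not pass at 4 h, IRF9 at -0.55 ± 0.20 (SE, adjusted p = 0.0585), IRF7 at -0.44 ± 0.16 (SE, adjusted p = 0.0581) and STAT2 at -0.16 ± 0.06 (SE, adjusted p = 0.0716).

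The OAS genes fell together at 4 h. OAS2 was at 25.9 and 32.5 CPM before E2, then 19.8 and 25.2 after 2 h, 18.4 and 18.3 after 4 h, and 20.4 and 14.96 after 8 h, with all 4 late libraries under the 0 h pair. Its log2 fold change was -0.67 ± 0.13 (SE, adjusted p = 0.00118) at 4 h and -0.72 ± 0.13 (SE, adjusted p = 0.000402) at 8 h. OAS1 was at 3.01 and 4.001 CPM before E2, then 1.91 and 2.32 after 2 h, 1.59 and 2.10 after 4 h, and 3.76 and 1.86 after 8 h, and changed by -0.93 ± 0.27 (SE, adjusted p = 0.0174) at 4 h, a call lost without 0 h replicate 2 or 4 h replicate 1. OAS3 changed by -0.22 ± 0.07 (SE, adjusted p = 0.0287) at 4 h, a call lost without 0 h replicate 2, 4 h replicate 1 or 4 h replicate 2. From 2 h to 8 h OAS3 was higher by 0.23 ± 0.07 (SE, adjusted p = 0.0251), a call lost without 8 h or 2 h replicate 1.

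ISG15 and its enzymes moved in both directions. ISG15 was at 3.10 and 5.55 CPM before E2, then 2.31 and 4.06 after 2 h, 2.57 and 2.02 after 4 h, and 4.24 and 3.24 after 8 h, so the 4 h pair lay under the 0 h pair while the 2 h and 8 h pairs overlapped it. It changed by -0.90 ± 0.27 (SE, adjusted p = 0.0213) at 4 h, a call lost without 0 h replicate 2 or 4 h replicate 2 and under DESeq2. UBE2L6 changed by -0.23 ± 0.05 (SE, adjusted p = 0.00441) at 4 h and -0.20 ± 0.05 (SE, adjusted p = 0.00828) at 8 h, and both calls were lost without 0 h replicate 2, that at 4 h also without 4 h replicate 1 and that at 8 h also without 8 h replicate 2. TRIM25, which had risen in Ishikawa cells, fell in T-47D cells from 241 and 258 CPM at 0 h to 206 and 215 after 4 h, then 207 and 203 after 8 h, with log2 fold changes of -0.24 ± 0.05 (SE, adjusted p = 0.00101) and -0.28 ± 0.05 (SE, adjusted p = 0.000172).

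HERC5 and HERC6, neighbours on chromosome 4, were the only 2 genes of the set that rose against 0 h in T-47D cells. HERC5 was at 1.84 and 1.65 CPM before E2, then 2.58 and 2.44 after 2 h, 3.35 and 4.30 after 4 h, and 5.002 and 4.51 after 8 h, with no overlap between the 0 h pair and any later pair. It rose by 1.12 ± 0.18 (SE, adjusted p = 0.000181) at 4 h and 1.44 ± 0.18 (SE, adjusted p = 7.05e-06) at 8 h, and by 0.92 ± 0.17 (SE, adjusted p = 0.000972) from 2 h to 8 h. HERC6, a relative of HERC5 with the same domains, was at 7.15 and 6.91 CPM before E2, then 7.89 and 7.81 after 2 h, 9.48 and 9.98 after 4 h, and 11.8 and 12.4 after 8 h. Its log2 fold change was 0.47 ± 0.10 (SE, adjusted p = 0.00279) at 4 h, 0.78 ± 0.10 (SE, adjusted p = 1.16e-05) at 8 h and 0.62 ± 0.10 (SE, adjusted p = 0.000267) from 2 h to 8 h. These 6 calls held with any 1 library left out. From 2 h to 8 h HERC5, HERC6 and OAS3 were the 3 genes that passed, all higher, and 16.8% of all genes passed in either direction. Without 8 h replicate 2 that count was 6, and 1 to 3 genes were lower without 8 h replicate 1, 2 h replicate 1 or either 0 h library.

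**Figure D4:**
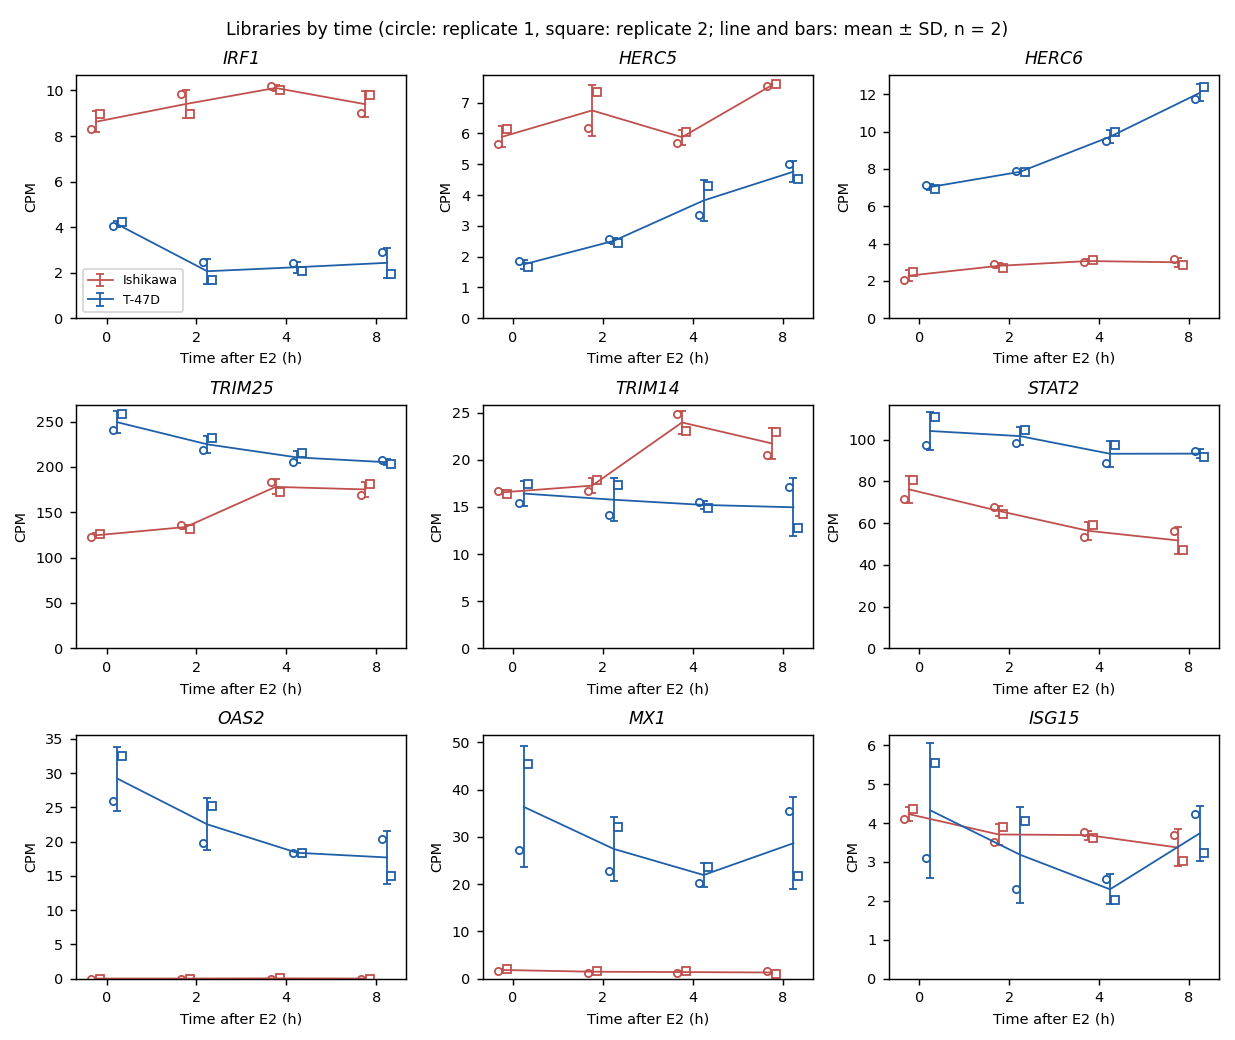
CPM of 9 genes in each library by time after E2, with circles for replicate 1, squares for replicate 2 and lines for the mean ± SD (n = 2). IRF1 was lower after E2 in T-47D cells and not in Ishikawa cells, HERC5 and HERC6 climbed in T-47D cells, TRIM25 moved in opposite directions, and the 0 h replicates of MX1 and ISG15 lay far apart in T-47D cells.

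The other falls at 4 h in T-47D cells were of effectors and nuclear body genes. MX1 was at 27.3 and 45.4 CPM before E2, then 22.7 and 32.2 after 2 h, 20.2 and 23.7 after 4 h, and 35.5 and 21.8 after 8 h, so that the 8 h libraries spanned the 0 h replicate 1 value. It changed by -0.73 ± 0.21 (SE, adjusted p = 0.0174) at 4 h, a call lost without 0 h replicate 2 or 4 h replicate 1 and under DESeq2. IFIT3 went from 1.87 and 2.84 CPM before E2 to 1.42 and 1.18 after 4 h, a change of -0.85 ± 0.28 (SE, adjusted p = 0.0374) that was lost without 0 h replicate 2 or either 4 h library and with the replicate block. IFI44 had few counts, 0.157 and 0.533 CPM before E2 and 0.0623 and 0.0771 after 4 h, and its change of -2.26 ± 0.75 (SE, adjusted p = 0.0404) was lost without 0 h replicate 2 or any single 4 h or 8 h library. IFI44 was not tested with only the time points compared or with at least 10 counts in every library. IFI6 changed by -0.63 ± 0.18 (SE, adjusted p = 0.0172) at 4 h, and LGALS3BP, a secreted glycoprotein, by -0.25 ± 0.08 (SE, adjusted p = 0.0343), and both calls were lost without 0 h replicate 2 or 4 h replicate 1. That of LGALS3BP was also lost without 4 h replicate 2, and that of IFI6 under DESeq2.

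BST2 had a small and even fall in T-47D cells, from 172 and 185 CPM at 0 h to 148 and 154 after 4 h, then 154 and 144 after 8 h, with log2 fold changes of -0.24 ± 0.05 (SE, adjusted p = 0.00230) and -0.25 ± 0.05 (SE, adjusted p = 0.000768). The 4 h call was lost without 0 h replicate 2 or 4 h replicate 1. SP110 went from 19.8 and 19.2 CPM to 14.6 and 15.9 after 4 h, then 15.2 and 15.5 after 8 h, with log2 fold changes of -0.36 ± 0.08 (SE, adjusted p = 0.00347) and -0.34 ± 0.08 (SE, adjusted p = 0.00356). The 4 h call was lost without 4 h replicate 1. SP100 passed at 8 h alone, at -0.26 ± 0.09 (SE, adjusted p = 0.0411), and stayed called in only 1 of the 8 fits that each left out a library, the one without 0 h replicate 2, and was lost under DESeq2. PARP9, PARP14, DTX3L, IFIH1, ADAR and EIF2AK2 did not pass at any time in T-47D cells. IFI27 had 0.855 and 3.39 CPM before E2, then 1.23 and 2.49 after 2 h, 1.71 and 1.45 after 4 h, and 1.74 and 1.72 after 8 h, with overlapping groups, and a log2 fold change of -0.41 ± 0.41 (SE, adjusted p = 0.533) at 4 h.

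Replicates of T-47D cells differed in these genes more than in most. At 0 h, 31 of the 44 genes were higher in replicate 2 than in replicate 1, with a median log2 difference (CPM plus 0.5) of 0.15 against -0.00 over all tested genes, and 9 differed by more than 0.5, as did 3.17% of all genes. At 8 h, 36 of the 44 were lower in replicate 2, with a median of -0.09, and 8 differed by more than 0.5, as did 1.96% of all genes. IFIT1 had 6.23 and 9.60 CPM at 0 h and 11.6 and 4.32 CPM at 8 h, and its change at 4 h was -0.78 ± 0.32 (SE, adjusted p = 0.0931). In Ishikawa cells the medians were 0.04 at 0 h and -0.14 at 8 h. The part of this replicate difference in the falls at 4 h was not tested beyond leaving out each library.

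**Figure D5:**
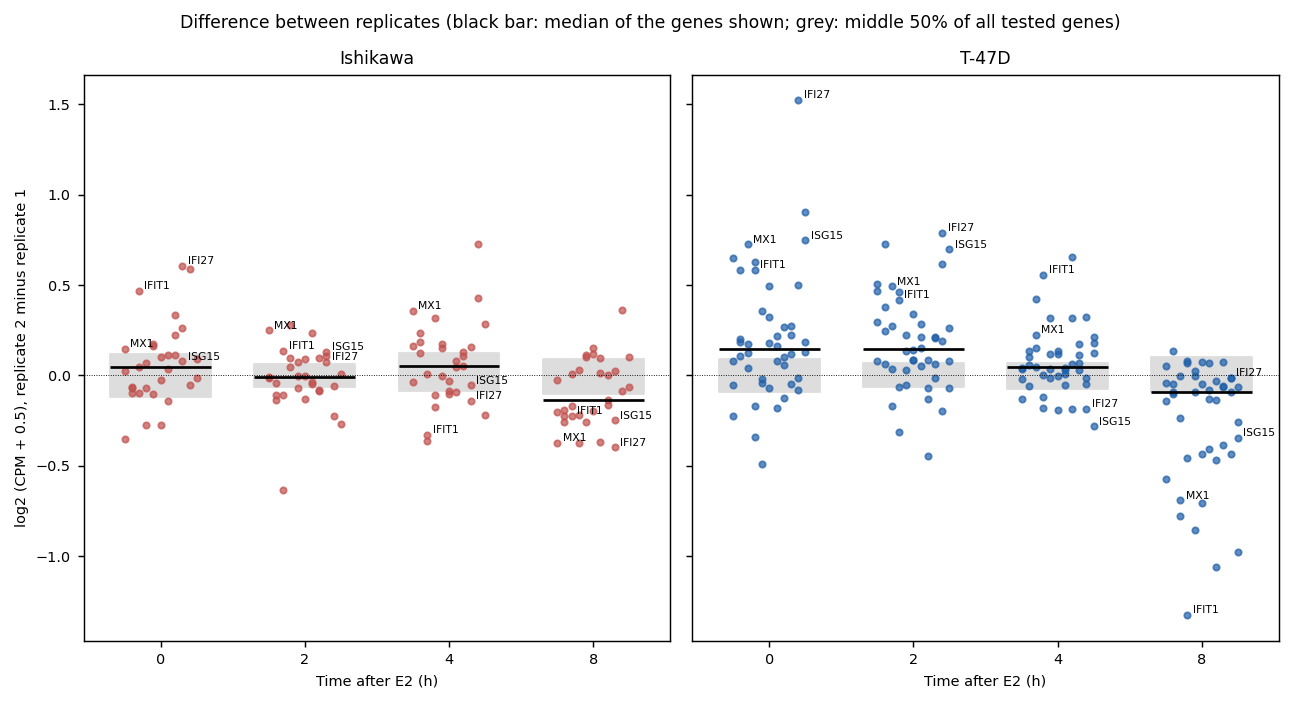
Difference between replicate 2 and replicate 1 (log2 of CPM plus 0.5) of each gene that passed the filter, by time, for 31 genes in Ishikawa and 44 genes in T-47D. Black bars are medians of the genes shown and grey bands the middle 50% of all tested genes. In T-47D cells most points are above 0 at 0 h and 2 h and below 0 at 8 h.

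The difference between the lines' responses was tested as the interaction of line and time over all 16 libraries. It is given for the 30 genes that passed the filter in both lines. At 2 h, 1 gene passed, where 2.67% of all genes did, at 4 h 4 genes, where 6.03% did, and at 8 h 4 genes, where 10.0% did. These shares are over all 17090 genes of the joint fit, which include genes that passed the filter through 1 line alone. IRF1 had a lower response in T-47D cells, with interactions of -1.10 ± 0.25 (SE, adjusted p = 0.0143) at 2 h, -1.09 ± 0.24 (SE, adjusted p = 0.00809) at 4 h and -0.89 ± 0.24 (SE, adjusted p = 0.0229) at 8 h. In Ishikawa cells IRF1 went from 8.30 and 8.95 CPM before E2 to 9.85 and 8.96 after 2 h, a change of 0.12 ± 0.12 (SE, adjusted p = 0.650). The 2 h call was lost without Ishikawa 2 h replicate 1, T-47D 2 h replicate 2 or T-47D 0 h replicate 2, the 4 h call without T-47D 4 h replicate 2, and the 8 h call without either T-47D 0 h library or replicate 2 of either line at 8 h.

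TRIM25 responded in opposite directions, with an interaction of -0.75 ± 0.08 (SE, adjusted p = 1.24e-06) at 4 h and -0.77 ± 0.08 (SE, adjusted p = 5.57e-07) at 8 h that held with any library left out. HERC5 responded more in T-47D cells, by 1.14 ± 0.23 (SE, adjusted p = 0.00359) at 4 h and 1.08 ± 0.23 (SE, adjusted p = 0.00337) at 8 h, also with any library left out. HERC5 in Ishikawa cells went from 5.65 and 6.14 CPM before E2 to 7.54 and 7.60 after 8 h. TRIM14 differed at 4 h by -0.63 ± 0.17 (SE, adjusted p = 0.0306), a call lost without Ishikawa 4 h replicate 1, replicate 2 of either line at 0 h or either T-47D 4 h library. STAT2 differed at 8 h by 0.40 ± 0.12 (SE, adjusted p = 0.0341), a call lost without 8 of the 16 libraries, one at a time: both Ishikawa 2 h, both T-47D 8 h, replicate 2 of Ishikawa at 0 h and 8 h, and replicate 1 of T-47D at 0 h and 4 h. It was also lost with only the time points compared. The count at 2 h was 2 without any single Ishikawa 4 h or 8 h library, that at 4 h was 2 without T-47D 4 h replicate 2, and that at 8 h was 2 without 8 h replicate 2 of either line or T-47D 0 h replicate 1. MX1, ISG15, IFI27 and IRF9 did not pass at any time, and the difference in HERC6 did not pass either.

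Upstream of these genes, 17 receptor, kinase and regulator genes were followed, all of which passed the filter. At 8 h, 3 were higher and 2 lower in Ishikawa cells, where 12.0% and 10.1% of all genes were, and 4 were higher and 6 lower in T-47D cells, where 15.4% and 14.3% were. CISH, a cytokine-inducible inhibitor of JAK-STAT signalling, rose in both lines from 2 h on, by 1.17 ± 0.13 (SE, adjusted p = 3.91e-05) in Ishikawa and 1.24 ± 0.11 (SE, adjusted p = 2.34e-07) in T-47D cells. JAK1 was at 193 and 192 CPM before E2, then 284 and 276 after 2 h, 331 and 333 after 4 h, and 341 and 345 after 8 h in T-47D cells, and rose by 0.83 ± 0.04 (SE, adjusted p = 3.01e-11) at 8 h. It stood at 10.8 and 12.6 CPM in Ishikawa cells at 0 h, a log2 difference between the lines of 4.10 ± 0.08 (SE, adjusted p = 4.91e-20). The list as a whole went in both directions at 0 h. Of the 17 genes, 7 were higher and 9 lower in T-47D cells, where 39.5% and 42.4% of all genes were. SOCS1, an inhibitor of JAK kinases, fell in T-47D cells at 2 h with a log2 fold change of -1.53 ± 0.43 (SE, adjusted p = 0.0307), and so did IFNLR1, a chain of the type III interferon receptor, with -0.56 ± 0.11 (SE, adjusted p = 0.00253). In Ishikawa cells the kinase TYK2 fell at 8 h (log2 fold change -0.32 ± 0.08, adjusted p = 0.00657), SOCS3, a relative of SOCS1, fell at 2 h (log2 fold change -1.16 ± 0.22, adjusted p = 0.00425), and the receptor gene IFNAR1 rose by 0.28 ± 0.07 (SE, adjusted p = 0.00798) at 8 h.

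Of 19 sensors and adaptors of nucleic acid detection, 12 were tested in Ishikawa and 15 in T-47D cells. At 8 h, 2 were higher in Ishikawa cells (TRAF3 and TBK1) and none lower, against 12.0% and 10.1% of all genes, and in T-47D cells 1 was higher (TRAF3) and 5 lower, against 15.4% and 14.3%. TRAF3, an adaptor and ubiquitin ligase, rose by 0.37 ± 0.06 (SE, adjusted p = 0.000421) in Ishikawa and 0.38 ± 0.06 (SE, adjusted p = 0.000193) in T-47D cells. DHX58, a relative of the RNA sensors RIG-I and IFIH1, fell in T-47D cells with a log2 fold change of -0.43 ± 0.09 (SE, adjusted p = 0.000884), and IKBKE, a kinase of IRF proteins, with -0.40 ± 0.08 (SE, adjusted p = 0.000887). At 0 h, 11 of the 14 tested across lines were higher in T-47D cells, TLR3 and NLRC5 most, and 3 were lower, where 39.5% and 42.4% of all genes were. TLR3 and NLRC5, at means of 0 and 0.0539 CPM in Ishikawa cells at 0 h, were not among the 12 tested there. They passed the filter through T-47D libraries alone, so their direction was fixed by it and is no support. TMEM173 (STING) was lower, with a log2 difference of -2.22 ± 0.17 (SE, adjusted p = 1.93e-10), and fell in Ishikawa cells at 4 h, with a log2 fold change of -0.66 ± 0.12 (SE, adjusted p = 0.00231).

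Of 17 antigen presentation genes, 12 of 15 tested were higher and 2 lower in T-47D cells at 0 h, where 39.5% and 42.4% of all genes were. Within Ishikawa cells only 10 were tested. Genes that passed the filter through T-47D libraries alone, TAP1 among them, had their direction fixed by it and are no support. HLA-B was at 2.11 and 2.34 CPM in Ishikawa and 182 and 205 CPM in T-47D cells, and TAP1, a peptide transporter, at 0 counts in all 8 Ishikawa libraries and 5.08 and 7.18 CPM in T-47D cells. After E2, HLA-E alone passed in Ishikawa cells, lower at 8 h, which was 10% of those tested, against 10.1% of all genes. In T-47D cells at 8 h, 1 was higher (TAP1, 6.67%) and 2 were lower (HLA-E and ERAP1, 13.3%). The shares of all genes there were 15.4% and 14.3%. HLA-E was at 10.3 and 11.1 CPM before E2, then 3.93 and 13.9 after 2 h, 2.69 and 3.06 after 4 h, and 6.58 and 2.76 after 8 h in T-47D cells, so that the 2 h replicates lay on either side of the 0 h pair. Genes of this region have alternative copies in the genome build, so their values are uncertain.

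A further 34 interferon-inducible genes outside the 45 were counted as a comparison. Of 23 tested in Ishikawa cells, 2 were higher and 5 lower at 8 h, where 12.0% and 10.1% of all genes were. Of 28 in T-47D cells, 2 were higher and 3 lower, where 15.4% and 14.3% were. At 4 h in T-47D cells, 0 of these 28 were higher and 5 lower (17.9%), where 11.1% and 10.4% of all genes were. Their median log2 fold change there was -0.24, as it was for the 45 genes. In Ishikawa cells at 4 h, 0 were higher and 3 lower (13.0%), where 7.66% and 6.60% of all genes were. HELZ2, a helicase, fell in both lines at 4 h, with log2 fold changes of -0.54 ± 0.11 (SE, adjusted p = 0.00293) in Ishikawa and -0.61 ± 0.13 (SE, adjusted p = 0.00273) in T-47D cells. RNF213, a large ubiquitin ligase, was at 246 and 263 CPM before E2, then 233 and 229 after 2 h, 163 and 191 after 4 h, and 167 and 168 after 8 h in Ishikawa cells. It fell there at 8 h, with a log2 fold change of -0.60 ± 0.07 (SE, adjusted p = 2.41e-05), and in T-47D cells, with -0.25 ± 0.06 (SE, adjusted p = 0.00212). GBP2 and LAMP3 rose in Ishikawa cells at 8 h, by 0.88 ± 0.23 (SE, adjusted p = 0.0128) and 0.36 ± 0.11 (SE, adjusted p = 0.0237), and PARP12 and LAP3 in T-47D cells, by 0.36 ± 0.08 (SE, adjusted p = 0.00333) and 0.28 ± 0.06 (SE, adjusted p = 0.00134). At 0 h, 14 of 29 were higher and 11 lower in T-47D cells, where 39.5% and 42.4% of all genes were. Those that passed the filter through 1 line alone had their direction fixed by it and are no support.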

How the data were processed

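Directional poly(A) RNA-seq libraries were aligned by the authors to hg19 with HISAT2, and reads were assigned to UCSC Known Genes with featureCounts. The deposited values are raw counts per gene, not normalized, in 1 table per line. Tool versions, strand setting and the handling of read pairs are not given in the sources used here. Of the counts from 1 to 10, 71.2% to 74.6% were even, so a count need not be 1 independent fragment, and floors cover counting error only.

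Tests used edgeR 4.0.16 in R 4.3.3 (filterByExpr, TMM, glmQLFit and glmQLFTest, time as a factor, Benjamini-Hochberg adjustment), with 15787 genes tested in Ishikawa, 15594 in T-47D and 17090 over both lines. The study names DESeq2, and DESeq2 1.42.0 was an alternative. CPM values, and the lower bounds between lines taken from them, use library sizes scaled by TMM within each line. The log2 differences between lines come from 1 fit of all 16 libraries, so the 2 scales are not the same. The SE is |log2 fold change| over √F, and a gene at 0 is given as a lower bound against 3 counts per library. GENCODE on GRCh37 gave positions and exon lengths for 22494 of 26364 symbols (85.3%), all 45 genes among them, and promoter windows came from RefSeq on GRCh38.p14. The fit was first tested on simulated counts. Over all genes tested, replicate correlations of deviations from group means were -0.115 to 0.0595 between time points, so no block was used. Within this set, 31 of 44 genes in T-47D cells were higher in replicate 2 at 0 h, 34 at 2 h and 8 at 8 h. Pairing of libraries within this set was not tested. The genes, lists and tests were chosen with earlier results of these data known. Genes given with values were the up to 5 largest called in each direction per comparison, the 5 highest per length, genes below the filter, ISG15, MX1, IFI27, IRF1, IRF9 and STAT2, and up to 2 per direction and line of each pathway list. Others, among them OAS3, UBE2L6, BST2, SP110, IFI6 and LGALS3BP at 4 h, IRF7, EIF2AK2, ADAR and the flanking genes, were added after their values were seen. Alternatives were RLE scaling, other filters, adjusted p of 0.01 and 0.1, the block, a fit of only the times compared, 4 h and 8 h as 1 group, counts divided by 2, the longest transcript and leaving out each library. Single-cell data were not analysed here, and 1 related gene that the rule names is not reported here.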

Additional observations from a re-analysis of the deposited data

Results flagged for a closer look

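The responses of the lines to E2 differed, by the interaction of line and time (edgeR, adjusted p under 0.05), for 5 of the interferon-stimulated genes and 6 of the related genes. Over all 17090 genes, 2.67% passed at 2 h, 6.03% at 4 h and 10.0% at 8 h. The related genes tested were 17 receptor, kinase and regulator genes, 14 sensors and adaptors, 15 antigen presentation genes and 29 further interferon-inducible genes. Values are T-47D minus Ishikawa log2 fold changes. For IRF1 the 2 h difference was -1.10 ± 0.25 (SE), with -1.09 ± 0.24 at 4 h and -0.89 ± 0.24 at 8 h. HERC5 differed by 1.14 ± 0.23 at 4 h and 1.08 ± 0.23 at 8 h. TRIM25 differed by -0.75 ± 0.08 at 4 h and -0.77 ± 0.08 at 8 h, TRIM14 by -0.63 ± 0.17 at 4 h and STAT2 by 0.40 ± 0.12 at 8 h.

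Among the related genes, JAK1 had a 2 h difference of 0.67 ± 0.11, with 0.97 ± 0.12 at 4 h and 1.14 ± 0.12 at 8 h. SOCS1 differed by -1.73 ± 0.45 at 2 h (adjusted p = 0.0416), with 1.93 and 2.62 CPM in Ishikawa and 0.652 and 0.824 CPM in T-47D cells at 0 h. RNF213 differed by 0.31 ± 0.09 at 4 h (adjusted p = 0.0499) and 0.35 ± 0.09 at 8 h. IFNAR2, a chain of the type I receptor, differed by 0.63 ± 0.16, STAT3 by -0.24 ± 0.07 and GBP2 by -1.23 ± 0.31, all at 8 h. The effect of leaving out single libraries on these values of related genes was not tested.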

How the results depend on the processing

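Of the 55 log2 fold changes named, 477 recomputations with another setting kept the side of the threshold and 34 did not (counting IFI44 at 4 h, which DESeq2 gave no adjusted p, so that no call was lost there), and leaving out libraries gave 571 kept, 67 lost and 2 reversed. The reversals were ISG15 at -0.37 and IFI27 at -0.12 in the line comparison at 0 h, both without T-47D 0 h replicate 2 (ranges -0.37 to 0.46 and -0.12 to 1.85). For the counts of genes called, 160 recomputations stayed within 1.5 times and 37 did not, and with libraries left out 169 stayed and 39 did not. The cause was not tested for any of them. In Ishikawa cells, the lower genes at 2 h were 1 with DESeq2, 2 with no filter, 1 at an adjusted p under 0.1 and 1 with only the time points compared. At 4 h they were 1 at 0.01, and at 8 h 5 with no filter and 1 at 0.01. From 2 h to 8 h, higher genes were 2 with DESeq2, with no filter and at 0.1, and lower genes 1 with DESeq2, no filter, 0.1 and only the time points compared. In T-47D cells, lower genes at 2 h were 2 with DESeq2, 8 with no filter, 5 at 0.1 and 4 with only the time points compared, and 1 was higher at 0.1. At 4 h, 6 were lower at 0.01, and 6 with 4 h and 8 h as 1 group (an alternative chosen after seeing the data, as was dividing counts by 2). At 8 h, 11 were lower with no filter and 11 at 0.1, and 4 higher at 0.1. From 2 h to 8 h, lower genes were 1 with DESeq2, RLE scaling and only the time points compared, 2 with no filter, with at least 10 counts in every library and with counts divided by 2, and 4 at 0.1. The line comparison at 0 h kept 16 higher genes with at least 10 counts in every library. The interaction at 2 h called 2 with DESeq2 and with only the time points compared and 0 at 0.01, and at 8 h 2 at 0.01. Over all genes, the replicate numbers did not pair the libraries. With the replicate block, the lower genes in T-47D cells were 2 at 2 h, 13 at 4 h (without IFIT3) and 9 at 8 h. With 1 library left out at a time, so that the lone sample was assumed to vary like the others, counts ranged as follows. Ishikawa higher genes were 0 to 0 at 2 h, 2 to 2 at 4 h, 1 to 3 at 8 h and 0 to 1 from 2 h to 8 h, and lower genes 0 to 1, 0 to 3, 1 to 3 and 0 to 1. T-47D higher genes were 0 to 0, 2 to 2, 2 to 3 and 2 to 6, and lower genes 1 to 6, 4 to 19, 4 to 14 and 0 to 3. At 0 h, 28 to 31 genes were higher and 8 to 8 lower in T-47D cells, and interactions were 0 to 2 at 2 h, 2 to 4 at 4 h and 2 to 5 at 8 h. Using the longest transcript moved 9 of 10 levels per length by more than the SD: in RPKM, ADAR 55.7, BST2 14.0, TRIM25 21.7, STAT2 11.9 and PLSCR1 13.6 in Ishikawa, and BST2 178, ADAR 83.7, UBE2L6 48.1 and TRIM25 43.4 in T-47D cells. A member under 3 counts per library, 0.0509 to 0.0744 CPM in Ishikawa cells, was not detectable at this depth.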
